A study of Mus musculus with 18 samples.

Results

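The genes described here are 9 transcription factors that mark excitatory projection neurons of the cerebral cortex: *Tbr1*, *Bcl11b*, *Fezf2*, *Cux1*, *Cux2*, *Rorb*, *Foxp2*, *Neurod6* and *Emx1*. They were listed by symbol and no measured value entered the rule, but the list was chosen with earlier results of these data known. Each symbol matched 1 identifier among the 53468 genes of the count table through GENCODE release M21. Their mRNA was measured at postnatal day 25 in 18 libraries made from the polyadenylated RNA of 3 brain regions, forebrain, midbrain and hindbrain. The 6 mice were 3 with the Fmr1CRE knock-in, a point variant placed by genome editing in a cis-regulatory element of *Fmr1* on a C57BL/6 background, and 3 littermate wild-type (WT) mice. Each mouse gave 1 library per region, so that each region holds 6 libraries and each combination of region and genotype holds 3. How many founder lines the Fmr1CRE mice came from is not given in the sources used here.

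Projection neurons of the cortex send axons to other cortical areas, to the striatum and thalamus, or to the brainstem and spinal cord. Combinations of transcription factors fix these classes during development and many of the factors remain expressed in mature neurons, where they serve as markers of cortical layers. Several are also found outside the cortex: *Bcl11b* and *Foxp2* in striatal neurons, *Neurod6* in pyramidal neurons of the hippocampus, *Rorb* and *Foxp2* in thalamus, and *Foxp2* in Purkinje neurons of the cerebellum. In RNA from whole tissue pieces, fewer cells of a type and less RNA per cell cannot be told apart.

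By role, *Emx1* is a homeobox factor of the dorsal telencephalon and *Neurod6* a basic helix-loop-helix factor of pyramidal neurons. *Tbr1*, a T-box factor, *Bcl11b*, a zinc finger factor also known as Ctip2, *Fezf2*, a zinc finger factor that directs neurons to subcortical targets, and *Foxp2*, a forkhead factor, mark deep layers. *Rorb*, a nuclear receptor, marks the layer that receives thalamic input, and *Cux1* and *Cux2*, homeobox factors of the cut family, mark upper layers. On GRCm38 the genes lie at chr6:85187438-85204462 (*Emx1*, ENSMUSG00000033726, plus strand), chr6:55677822-55681263 (*Neurod6*, ENSMUSG00000037984, minus strand) and chr2:61802930-61814114 (*Tbr1*, ENSMUSG00000035033, plus strand). *Bcl11b* (ENSMUSG00000048251) lies at chr12:107910403-108003602 on the minus strand and *Fezf2* (ENSMUSG00000021743) at chr14:12342094-12348189 on the minus strand. *Foxp2* (ENSMUSG00000029563) lies at chr6:14901349-15441977 on the plus strand and *Rorb* (ENSMUSG00000036192) at chr19:18930605-19111196 on the minus strand. *Cux1* (ENSMUSG00000029705) at chr5:136248135-136567490 and *Cux2* (ENSMUSG00000042589) at chr5:121856366-122050102 are both on the minus strand. Antisense genes overlap *Cux1* and *Cux2*, and none of them had more than 2 counts in any library.

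*Cux1* needs a word on its sequence before its values, since its count sums transcripts of different proteins. The locus encodes the cut homeobox factor and also CASP, a Golgi membrane protein that shares the first exons and lacks the DNA-binding domains. In GENCODE M21, Cux1-201 and Cux1-211 have exon 14 in common (chr5:136314307-136314403). Cux1-201 then continues at chr5:136312643-136313008, and Cux1-211 skips to chr5:136257913-136258040 and ends at base 136248135. The transcripts' sequences, 5′ to 3′, with the 30 shared bases in lower case and the 30 bases after the junction in capitals, show the point at which they part.
Cux1-201: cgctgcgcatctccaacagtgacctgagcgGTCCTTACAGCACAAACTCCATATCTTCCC
Cux1-211: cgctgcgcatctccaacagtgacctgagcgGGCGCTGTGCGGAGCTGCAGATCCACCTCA
The longest reading frame of Cux1-201 has 1426 residues and holds a homeodomain motif, and that of Cux1-211 has 676 residues and does not. The authors' transcript estimates could not be tied to groups, because the mouse and region in their names did not match the sample records they were attached to, so that they are given as a range over the 18 sets. In TPM, salmon's abundance of a transcript corrected for its length, the 5 transcripts that end downstream of the last exon of Cux1-201 held between 65.8% and 91.5% of the gene's total, with a median of 74.2%. The 6 transcripts that hold that last exon had between 5.04% and 13.04%, with a median of 8.12%. In estimated reads, which count long transcripts more, the shares were 53.0% to 74.3% (median 63.6%) for the first kind and 22.02% to 43.3% (median 32.7%) for the second. Most of what is counted as *Cux1* below thus came, by these estimates, from transcripts without the homeodomain. For *Cux2* the 3 transcripts with a homeodomain motif held 26.4% to 42.7% of TPM, with a median of 31.9%, and 6 transcripts not annotated as protein coding held a median of 47.5%. The estimates were simpler for *Neurod6*, *Tbr1* and *Bcl11b*. *Neurod6* has 1 transcript, Tbr1-201 had a median of 99.6% of its gene's TPM and Bcl11b-201 a median of 93.5%. The remaining members were more divided. In *Emx1* a transcript not annotated as protein coding held a median of 45.5% of TPM (33.1% to 100%). The leading transcripts of *Rorb* had medians of 57.5% and 39.8%, and those of *Foxp2* 57.8% and 29.4%. Each transcript of *Fezf2* ranged from 0% to 100% over the 18 sets.

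Libraries held from 22455512 to 28061185 counts in total. Levels are given as CPM, the count of a gene scaled to the size of its library, after TMM normalization, which makes libraries comparable. Differences are log2 fold changes with a standard error (SE) from edgeR's quasi-likelihood test over all genes, and a gene was called at a Benjamini-Hochberg adjusted p under 0.05. *Fmr1* itself did not separate the genotypes, with log2 fold changes of -0.0033, 0.0056 and 0.15 in forebrain, midbrain and hindbrain (adjusted p = 0.996, 0.995 and 0.906, edgeR). The forebrain libraries labelled replicate 3 were the ones that followed the other regions of their mouse least: the correlation over genes of their deviations from the group mean was negative in 4 of 4 pairs (r from -0.17 to -0.020), and in the 14 other pairs of regions of 1 mouse it ran from -0.026 to 0.18. The ranges overlap, through the WT library, and whether the Fmr1CRE and WT libraries carry each other's label was not tested. The region comparisons, the midbrain percents and the genotype comparison in forebrain are therefore also given without both mice of replicate 3. Which library was in which of the sequencing pools is not named in the sources used here, and a difference between pools was not tested.

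All 9 members were higher in forebrain than in hindbrain, from *Fezf2*, *Tbr1* and *Emx1*, which were close to absent in hindbrain, to *Cux1*, which was nearly level. The share of all 20363 genes called higher in forebrain was 26.4%. *Emx1* had 9.14 to 14.3 CPM in forebrain with a median of 11.9, and 0.0722 to 0.593 CPM in hindbrain, which is 2 to 15 counts. The difference was 5.75 (SE 0.22, adjusted p = 7.5e-12, edgeR). *Neurod6* ran from 40.3 to 75.4 CPM in forebrain with a median of 45.6, and from 5.41 to 7.95 CPM in hindbrain with a median of 6.19. It was thus 7.55-fold higher in forebrain (log2 2.92, SE 0.14, adjusted p = 9.5e-11, edgeR), and its hindbrain level was well above zero.

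Among the deep-layer factors, *Fezf2* had 13.4 to 18.7 CPM in forebrain, with a median of 17.3. In hindbrain 2 of its 6 libraries had 0 counts, 3 had 1 count and WT replicate 3 had 7. The fitted difference of 8.25 (SE 0.33, adjusted p = 1.5e-11, edgeR) therefore rests on very few hindbrain reads. *Tbr1* had 53.4 to 81.4 CPM in forebrain with a median of 66.1, and 0.165 to 0.830 CPM in hindbrain, from 5 to 21 counts. Its difference was 7.46 (SE 0.29, adjusted p = 1.2e-11, edgeR). *Bcl11b* had 49.2 to 117 CPM in forebrain with a median of 92.0, and 3.34 to 5.16 CPM in hindbrain, a difference of 4.404 (SE 0.26, adjusted p = 1.0e-09, edgeR). Unlike *Fezf2* and *Tbr1*, *Bcl11b* had at least 92 counts in every hindbrain library. *Foxp2* had 20.5 to 29.1 CPM in forebrain and 7.79 to 13.2 CPM in hindbrain, a difference of 1.504 (SE 0.14, adjusted p = 1.5e-07, edgeR).

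The layer factors *Rorb* and *Cux2* kept about as much of their level in hindbrain as *Foxp2*. *Rorb* had 35.1 to 47.0 CPM in forebrain and 10.1 to 16.1 CPM in hindbrain, a difference of 1.58 (SE 0.11, adjusted p = 9.9e-09, edgeR). *Cux2* had 77.4 to 114 CPM in forebrain and 26.1 to 40.5 CPM in hindbrain, a difference of 1.51 (SE 0.13, adjusted p = 1.2e-07, edgeR). *Cux1* was the flattest of the members, with 77.2 to 108 CPM in forebrain and 68.4 to 76.8 CPM in hindbrain. Its difference was 0.39 (SE 0.065, adjusted p = 0.00012, edgeR), and in Fmr1CRE libraries alone it was 0.16 and not called (adjusted p = 0.253, edgeR). For all 9 members the 6 forebrain and 6 hindbrain libraries did not overlap, which held with forebrain higher for 14.7% of all genes. Without both mice of replicate 3, 9 of 9 members were called, with differences from 0.34 for *Cux1* to 9.52 for *Fezf2*.

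**Figure D1:**
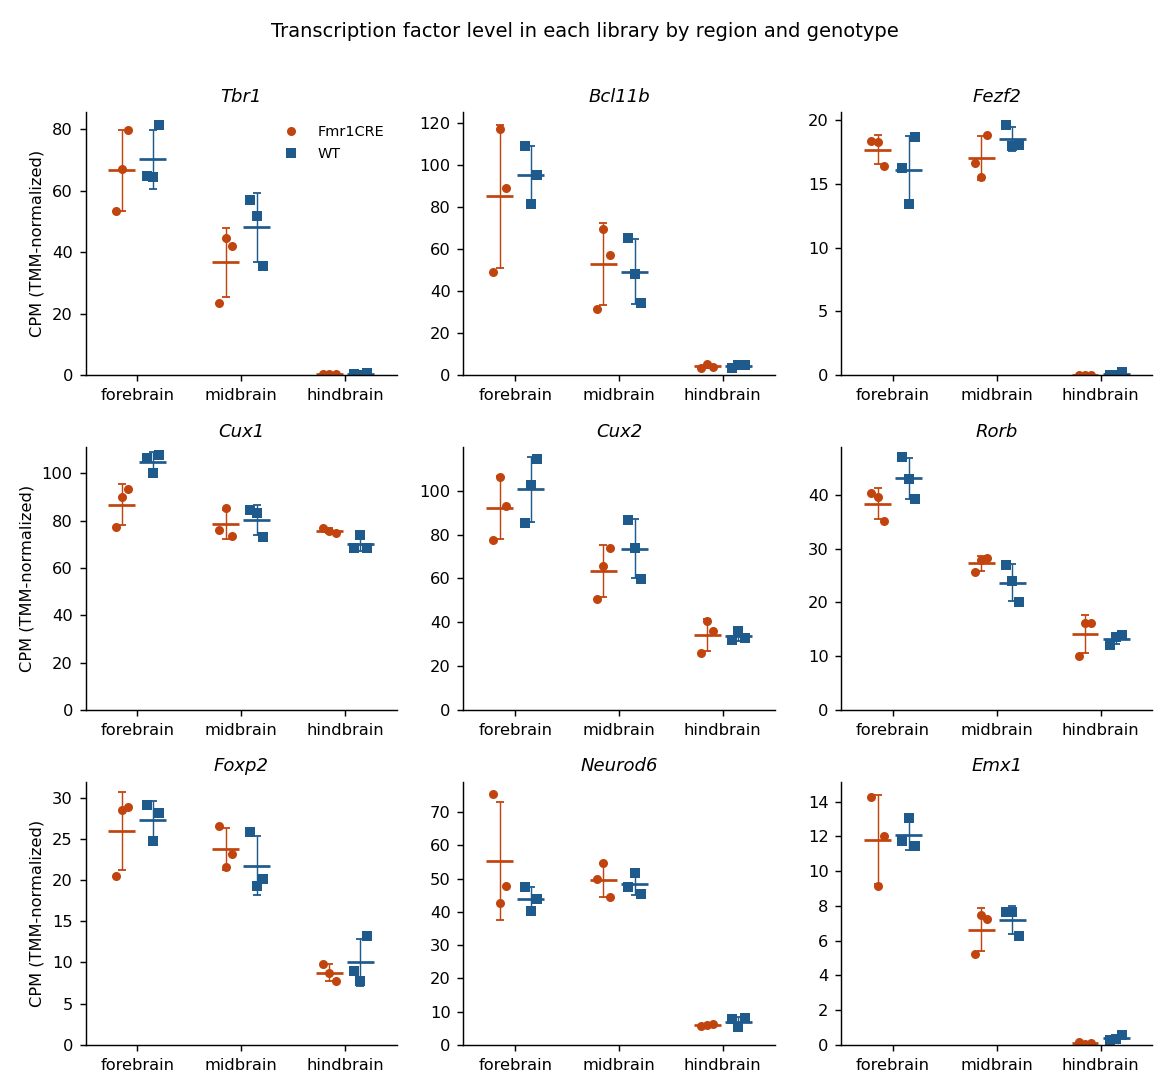
Level of each transcription factor in every library, as TMM-normalized CPM on a linear axis from 0, by region. Points are libraries of Fmr1CRE (circles) and wild-type (squares) mice, 3 per group, and bars are the mean and SD. Hindbrain points lie near 0 for *Tbr1*, *Fezf2* and *Emx1*, while *Fezf2* and *Neurod6* stand as high in midbrain as in forebrain.

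The midbrain libraries held a large part of the forebrain level of every member. As a ratio of the means over 6 libraries, the midbrain level was 56.5% of the forebrain level for *Bcl11b*, 57.9% for *Emx1*, 61.9% for *Tbr1* and 62.6% for *Rorb*. It was 71.0% for *Cux2*, 82.9% for *Cux1* and 85.5% for *Foxp2*. *Neurod6* at 98.7% and *Fezf2* at 105% were as high in midbrain as in forebrain. The median over the 9 members was 71.0%, and the hindbrain level was a median of 13.2% of the forebrain level. *Fezf2* showed the widest contrast, with 15.5 to 19.6 CPM in midbrain against a highest hindbrain value of 0.277 CPM.

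Within each mouse the order was looser. *Fezf2* in midbrain was 84.9% to 134% of the forebrain level of the same mouse, below it in 3 of 6 mice, and *Neurod6* was 65.9% to 129%, below it in 2 of 6. For *Neurod6* the lowest value came from Fmr1CRE replicate 1, whose forebrain library had 75.4 CPM against 40.3 to 47.8 CPM in the other 5. *Bcl11b* was 35.9% to 64.2%, *Emx1* 36.5% to 81.8% and *Tbr1* 43.6% to 87.9%, so that these members were below the forebrain level in 6 of 6 mice. *Rorb*, at 51.2% to 80.3%, and *Cux1*, at 67.8% to 98.6%, were also below it in 6 of 6 mice. *Cux2*, at 52.4% to 102%, and *Foxp2*, at 71.5% to 130%, were below it in 5 of 6. These ratios take the replicate 3 forebrain libraries as belonging to the mice of their labels. Without both mice of replicate 3 the ratios of the means were 58.1% for *Emx1*, 60.1% for *Bcl11b*, 61.5% for *Rorb*, 70.8% for *Tbr1*, 74.5% for *Cux2*, 88.1% for *Cux1*, 90.8% for *Foxp2*, 99.0% for *Neurod6* and 105% for *Fezf2*.

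**Figure D2:**
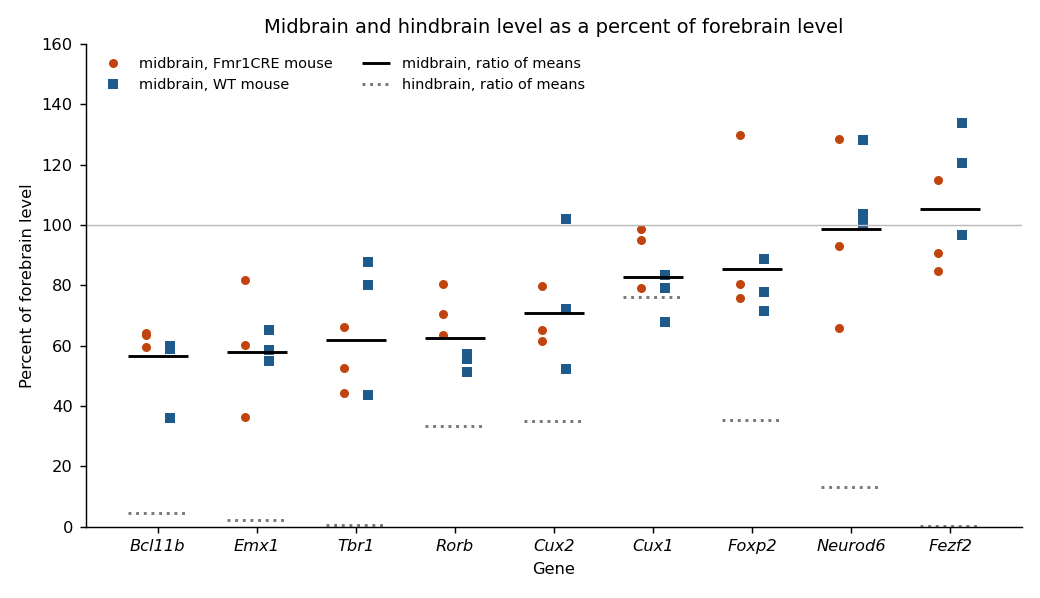
Midbrain level of each gene as a percent of its forebrain level, within each Fmr1CRE mouse (circles) and wild-type mouse (squares), with the ratio of the means over 6 libraries (black line) and the same for hindbrain (dotted line). The black lines run from 56.5% for *Bcl11b* to 105% for *Fezf2*, and the dotted lines from 0.382% for *Fezf2* to 76.2% for *Cux1*.

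By the test across all genes, 6 of the 9 members were higher in forebrain than in midbrain, where 9.38% of all genes were called higher and 9.96% lower. *Bcl11b* differed by 0.82 (SE 0.22, adjusted p = 0.0160, edgeR), *Emx1* by 0.79 (SE 0.16, adjusted p = 0.0022, edgeR) and *Tbr1* by 0.71 (SE 0.19, adjusted p = 0.0183, edgeR). *Rorb* differed by 0.68 (SE 0.11, adjusted p = 0.00049, edgeR), *Cux2* by 0.50 (SE 0.13, adjusted p = 0.0140, edgeR) and *Cux1* by 0.27 (SE 0.065, adjusted p = 0.0097, edgeR). Of these, only *Rorb* and *Emx1* had forebrain and midbrain libraries that did not overlap, a pattern with forebrain higher in 5.1% of all genes. The values of *Foxp2* (0.23, 95% interval -0.051 to 0.51), *Neurod6* (0.0093, -0.26 to 0.28) and *Fezf2* (-0.073, -0.47 to 0.32) were not called, and the intervals leave room for differences of the size seen for *Cux1*. The median over the members was 0.50, beside 0.023 over all genes.

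Some of these 6 calls were lost with fewer libraries while the differences kept their direction. Without both mice of replicate 3, 2 of 9 members were called, beside 7.81% of all genes called higher: *Rorb* (0.70, adjusted p = 0.0085, edgeR) and *Emx1* (0.79, adjusted p = 0.0225, edgeR). *Bcl11b* was then 0.73, *Tbr1* 0.53, *Cux2* 0.44 and *Cux1* 0.17, with adjusted p from 0.0671 to 0.147 (edgeR). Without WT forebrain replicate 3 alone, *Tbr1* was 0.64 (adjusted p = 0.0504, edgeR), and without Fmr1CRE forebrain replicate 2 alone, *Bcl11b* was 0.67 (adjusted p = 0.0510, edgeR). In Fmr1CRE libraries alone 0 of the 9 members passed edgeR's test, beside 1.13% of all genes called higher. In wild-type libraries alone 4 of 9 passed, beside 4.32% of all genes.

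Against hindbrain, 8 of the 9 members were higher in midbrain, where 25.1% of all genes were called higher. *Fezf2* differed by 8.32 (SE 0.33), *Tbr1* by 6.76 (SE 0.29), *Emx1* by 4.96 (SE 0.21) and *Bcl11b* by 3.58 (SE 0.25), each with an adjusted p of at most 1.8e-08 (edgeR). *Neurod6* differed by 2.91 (SE 0.14, adjusted p = 2.8e-10, edgeR), *Foxp2* by 1.28 (SE 0.14, adjusted p = 1.6e-06, edgeR), *Cux2* by 1.01 (SE 0.13, adjusted p = 1.4e-05, edgeR) and *Rorb* by 0.90 (SE 0.11, adjusted p = 9.0e-06, edgeR). Those 8 members had midbrain libraries that were all above all hindbrain libraries, a pattern of 16.0% of all genes. *Cux1* had 73.0 to 85.4 CPM in midbrain, which overlaps its hindbrain range, and its difference of 0.12 (SE 0.065, adjusted p = 0.136, edgeR) was not called. Without WT midbrain replicate 3 it was 0.16 (adjusted p = 0.0447, edgeR).

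**Figure D3:**
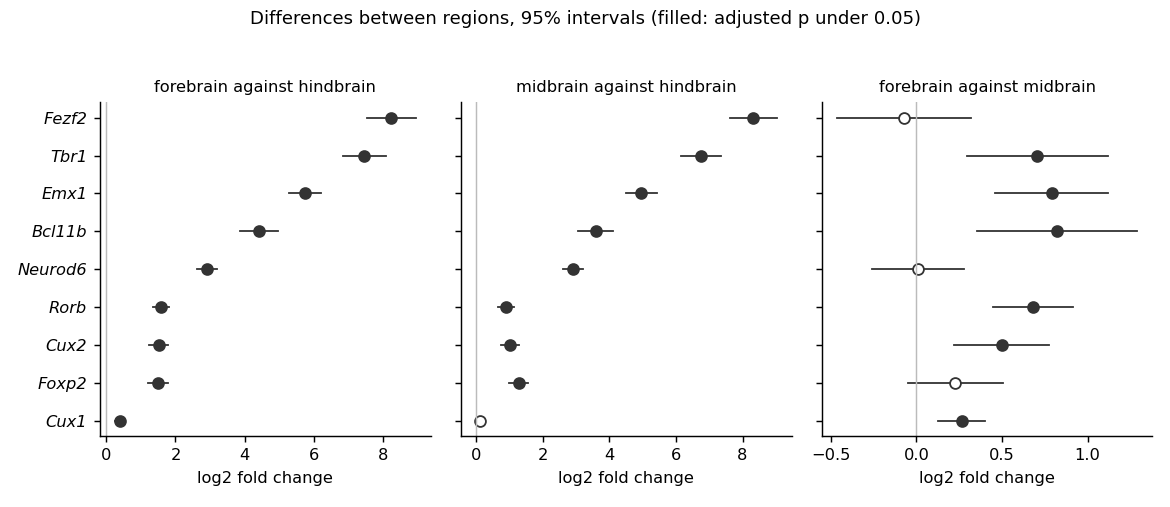
Log2 fold change of each gene between regions with its 95% interval, from edgeR over all 18 libraries. Filled points have an adjusted p under 0.05. All 9 genes lie above 0 for forebrain against hindbrain and 8 are filled for midbrain against hindbrain, and forebrain exceeds midbrain for 6 of them by between 0.27 and 0.82. The third panel has a narrower axis than the others.

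The midbrain libraries carried the markers of their labelled region and also those of neighbouring tissues. Of 9 midbrain genes, 9 were called higher in midbrain than in forebrain, and their summed level was 46.0 to 110 CPM in midbrain against 4.30 to 15.2 CPM in forebrain and 11.5 to 19.1 CPM in hindbrain. Against hindbrain 8 were called higher and 1 lower in midbrain. The latter was *Otx2*, with 6.19 ± 1.42 CPM in midbrain and 9.28 ± 2.37 CPM in hindbrain (SD, n = 6 each). The list of 16 cortical excitatory neuron and layer genes summed to 2243 to 4062 CPM in midbrain, 3916 to 7348 CPM in forebrain and 437 to 532 CPM in hindbrain, so that its mean in midbrain was 58.5% of forebrain. None of the 16 genes was at 0 in any library. Against this, striatal medium spiny neuron genes, 9 in all, were called higher in forebrain in 9 of 9 cases, and their summed level in midbrain was 22.1% of forebrain.

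Some hippocampal genes went the other way. Of 7, 3 were called higher in midbrain than in forebrain and 0 lower, and their sum was 87.7 to 150 CPM in midbrain, 41.7 to 90.5 CPM in forebrain and 32.1 to 51.3 CPM in hindbrain. *Fibcd1*, a marker of pyramidal neurons of the hippocampus, had 16.7 ± 3.32 CPM (SD, n = 6) in forebrain and 41.3 ± 9.43 CPM (SD, n = 6) in midbrain. *C1ql2*, a marker of dentate granule neurons, had 4.72 ± 1.65 CPM (SD, n = 6) and 14.5 ± 3.67 CPM (SD, n = 6). The other named genes of the list leaned to forebrain and were not called: *Trpc6* had a difference of 0.27 and *Iyd* of 0.34 (adjusted p = 0.124 and 0.519, edgeR). Thalamic genes, 10 in all, had 1 called higher in forebrain and 2 higher in midbrain, and their sum in midbrain was 129% of forebrain. Of 6 cerebellar granule neuron genes 5 were higher in midbrain than in forebrain, with a summed level of 194 to 495 CPM against 57.5 to 82.1 CPM, and of 6 Purkinje neuron genes 5 were. The part of each tissue in the midbrain level of the 9 members was not tested.

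Other transcription factors of cortical neurons did not share 1 pattern between forebrain and midbrain. Of 25 on the list, 20 were called higher and 4 lower in forebrain than in hindbrain, with a median of 1.34, and 21 higher and 2 lower in midbrain than in hindbrain. Between forebrain and midbrain 6 were called higher and 6 lower, with a median of 0.24. *Foxp1*, a forkhead factor shared with striatal neurons, was higher in forebrain by 1.09 (SE 0.17), with 103 ± 19.0 CPM (SD, n = 6) against 48.4 ± 9.88 CPM (SD, n = 6). *Mef2c* was higher by 0.87 (SE 0.19), with 468 ± 63.1 CPM (SD, n = 6) against 256 ± 33.6 CPM (SD, n = 6). *Neurod1*, which is also a factor of cerebellar granule neurons, was lower in forebrain by -2.29 (SE 0.28), with 9.48 ± 1.73 CPM (SD, n = 6) against 46.0 ± 18.6 CPM (SD, n = 6), and 95.4 ± 35.9 CPM (SD, n = 6) in hindbrain. *Nr4a2*, also a factor of midbrain dopamine neurons, was lower by -1.61 (SE 0.35), with 21.7 ± 11.2 CPM (SD, n = 6) against 66.3 ± 12.5 CPM (SD, n = 6).

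Of the 16 cortical excitatory neuron and layer genes, 7 were called higher and 1 lower in forebrain than in midbrain, with a median of 0.38. *Nrgn*, which encodes the postsynaptic protein neurogranin, had 1056 ± 87.3 CPM (SD, n = 6) in forebrain, 519 ± 99.2 CPM (SD, n = 6) in midbrain and 14.5 ± 6.16 CPM (SD, n = 6) in hindbrain. *Nxph4*, a deep-layer marker, was the gene lower in forebrain, with 3.12 ± 1.095 CPM (SD, n = 6) against 15.8 ± 4.22 CPM (SD, n = 6) in midbrain. Its hindbrain level was 20.1 ± 4.69 CPM (SD, n = 6), not called different from midbrain (adjusted p = 0.193, edgeR). Between forebrain and hindbrain 14 of the 16 were called higher and 2 lower in forebrain, *Nxph4* and *Lamp5*. *Lamp5* had 105 ± 18.3 CPM in forebrain, 48.7 ± 7.45 CPM in midbrain and 134 ± 21.4 CPM in hindbrain (SD, n = 6 each).

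Set per kilobase of effective transcript length, the order of the members differed between regions. The length was 1 value per gene, pooled over the 18 sets of estimates, so that the order between genes is approximate. For *Tbr1*, *Bcl11b* and *Emx1* this length was 4120, 8444 and 1847 bases, above their longest transcripts of 3977, 8111 and 1561 bases. In forebrain *Neurod6* (31.5 CPM per kb), *Cux1* (29.6) and *Cux2* (27.6) led and did not differ beyond the spread of their libraries. *Tbr1* (16.6 CPM per kb) came next and lay below every *Cux2* library, followed by *Bcl11b* (10.7), *Fezf2* (7.04), *Emx1* (6.47), *Foxp2* (6.22) and *Rorb* (5.51), whose neighbours overlapped at each step. In midbrain *Neurod6* (31.1 CPM per kb) stood above *Cux1* (24.5) in every library, and *Fezf2* (7.40) came before *Bcl11b* (6.03), whose ranges overlapped. In hindbrain *Cux1* (22.5 CPM per kb) was above *Cux2* (9.68), *Neurod6* (4.16) and *Foxp2* (2.20), each without overlap with the next. *Rorb* (1.85 CPM per kb) overlapped *Foxp2*, and *Bcl11b* (0.502), *Emx1* (0.143), *Tbr1* (0.0951) and *Fezf2* (0.0269) closed the order.

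The members also differed in how much they varied between mice in midbrain. *Bcl11b* and *Tbr1* varied most, with a coefficient of variation of 31.3% and 28.1% over 6 libraries. *Neurod6*, *Fezf2* and *Cux1* varied least, with 7.92%, 8.36% and 7.20%. *Tbr1* had 23.6, 44.5 and 41.9 CPM in Fmr1CRE replicates 1, 2 and 3 and 57.1, 51.7 and 35.5 CPM in wild-type replicates 1, 2 and 3. Fmr1CRE replicate 1 was the lowest midbrain library for *Tbr1*, *Bcl11b*, *Cux2* and *Emx1*, and it was also lowest for the summed cortical excitatory list, at 2243 CPM. For *Foxp2* the same library was the highest, at 26.6 CPM against 19.2 to 25.8 CPM in the others.

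**Figure D4:**
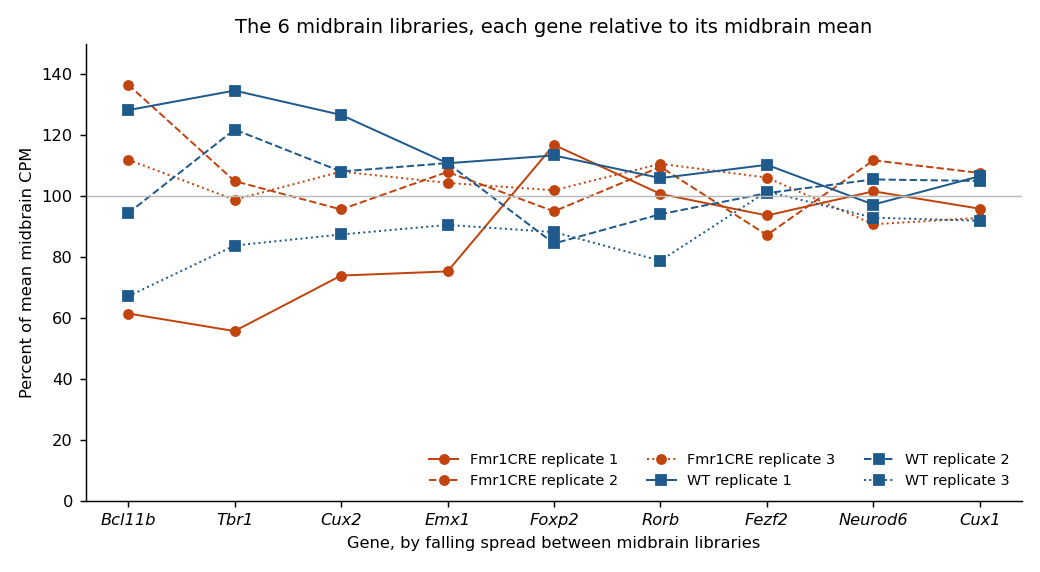
The 6 midbrain libraries, with each gene as a percent of its mean midbrain CPM and genes ordered by falling coefficient of variation, from 31.3% for *Bcl11b* to 7.20% for *Cux1*. Lines join the genes of 1 library and have no meaning between genes. Fmr1CRE replicate 1 lies lowest for *Bcl11b*, *Tbr1*, *Cux2* and *Emx1* and not for the other genes.

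The forebrain library of the same mouse was also at the edge of its group. Fmr1CRE replicate 1 was the lowest forebrain library for *Tbr1*, *Bcl11b*, *Cux1*, *Cux2* and *Foxp2* and the highest for *Neurod6* and *Emx1*. *Bcl11b* had 49.2 CPM there and 81.4 to 117 CPM in the other 5. Its striatal sum was 632 CPM against 1075 to 1665 CPM, its cortical excitatory sum 3916 CPM against 5351 to 7348 CPM and its hypothalamic sum 5.88 CPM against 14.9 to 105 CPM. The part of these tissue markers in the spread of the members was not tested.

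Whether the genotype changed the members was asked within each region. With edgeR, forebrain had 0 of 9 members called (0.0% of 18467 genes), midbrain 0 of 9 (0.00543% of 18400 genes) and hindbrain 0 of 7 (0.0% of 19112 genes), where *Fezf2* and *Emx1* were too low to be tested. At an unadjusted p under 0.05 the members were 1, 0 and 0, beside 5.43%, 6.17% and 5.13% of all genes. DESeq2 called 0 members in each region, and 31, 62 and 59 genes in all. The median log2 fold change of the members was -0.048 in forebrain, -0.033 in midbrain and -0.090 in hindbrain. A two-sided exact permutation test of 3 against 3 mice cannot go below p = 0.1. In midbrain, the hypothalamic sum was 50.6 to 129 CPM in Fmr1CRE and 8.74 to 26.3 CPM in wild-type libraries. The striatal sum there was 233 to 498 CPM against 166 to 217 CPM. Sums of the other lists overlapped, no gene of either list was called, and both were named after their values were seen. What these tissues add to the genotype values of the members was not tested.

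*Cux1* was the member with a difference in forebrain at the unadjusted level. It had 77.2, 89.9 and 93.3 CPM in Fmr1CRE replicates 1, 2 and 3 and 107, 100.03 and 108 CPM in wild-type replicates 1, 2 and 3. The groups did not overlap, as for 10.3% of all genes, and the log2 fold change was -0.24 (SE 0.10, unadjusted p = 0.0451 and adjusted p = 0.806, edgeR; exact permutation test, p = 0.1). Without both mice of replicate 3 it was -0.26 (adjusted p = 0.443, edgeR). The absence of overlap also rests on the labels of replicate 3, since its libraries had 93.3 CPM under the Fmr1CRE label and 108 CPM under the WT label, and exchanging them would make the groups overlap. In hindbrain the groups did not overlap in the other direction, as for 10.9% of all genes, with 74.6 to 76.8 CPM in Fmr1CRE and 68.4 to 73.9 CPM in wild-type libraries and a log2 fold change of 0.10 (SE 0.094, adjusted p = 0.909, edgeR). In midbrain it was -0.033 (SE 0.096). The interaction of genotype and region gave *Cux1* an unadjusted p of 0.0317 and an adjusted p of 0.660 (edgeR).

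The intervals show what size of change the data leave room for. In forebrain the 95% intervals of *Tbr1* (-0.41 to 0.32), *Fezf2* (-0.20 to 0.53) and *Rorb* (-0.42 to 0.16) stayed within 1.5-fold in both directions. Those of *Bcl11b* (-0.78 to 0.50) and *Neurod6* (-0.15 to 0.90) were wider. Without both mice of replicate 3, edgeR called 0 members and 0 genes in forebrain, and the log2 fold changes were -0.053 for *Tbr1*, 0.36 for *Fezf2*, -0.12 for *Rorb*, -0.15 for *Bcl11b* and 0.49 for *Neurod6*. For *Neurod6* the log2 fold change was 0.37 with all libraries and 0.052 without Fmr1CRE forebrain replicate 1. In midbrain the largest value was that of *Tbr1*, at -0.39 (SE 0.25, 95% interval -0.98 to 0.20, adjusted p = 0.842, edgeR), and the narrowest interval that of *Cux1* (-0.26 to 0.19). In hindbrain *Tbr1* was at so few counts that its interval ran from -1.59 to 1.24.

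*Emx1* in hindbrain is given as values, since it was too low for the test in that region alone. It had 5, 2 and 2 counts in Fmr1CRE replicates 1, 2 and 3 and 8, 11 and 15 counts in wild-type replicates 1, 2 and 3. In CPM the levels were 0.111 ± 0.058 (SD, n = 3) and 0.418 ± 0.16 (SD, n = 3). The groups did not overlap (exact permutation test, p = 0.1, the lowest that test can give). This held for 10.9% of the genes tested in hindbrain, a set without *Emx1*, and the share among genes with counts this low was not computed. In forebrain the level of *Emx1* was 11.8 ± 2.58 CPM (SD, n = 3) and 12.1 ± 0.865 CPM (SD, n = 3). The test of the difference between regions gave an unadjusted p of 0.0031 and an adjusted p of 0.660 for *Emx1* (edgeR). *Emx1* entered that fit only through its forebrain and midbrain counts. Its genotype values there were 0.0037 and -0.12, and hindbrain had 2 to 15 counts, so no difference is read from this p. Of the members 2 of 9, *Cux1* and *Emx1*, had an unadjusted p under 0.05 in that test, beside 7.54% of all genes. The members called were 0 of 9, as were 0.0% of all genes. DESeq2 called 0 members and 52 genes. In that fit the 3 libraries of a mouse were treated as separate samples. *Rorb*, picked from the 9 members after their values were seen, had an adjusted p of 0.734 in that test (edgeR). Its midbrain level within mice was 63.6% to 80.3% of forebrain in Fmr1CRE and 51.2% to 57.4% in wild-type mice. The share of all genes with such a separation was not computed, and the ratios take the labels of replicate 3 as right.

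**Figure D5:**
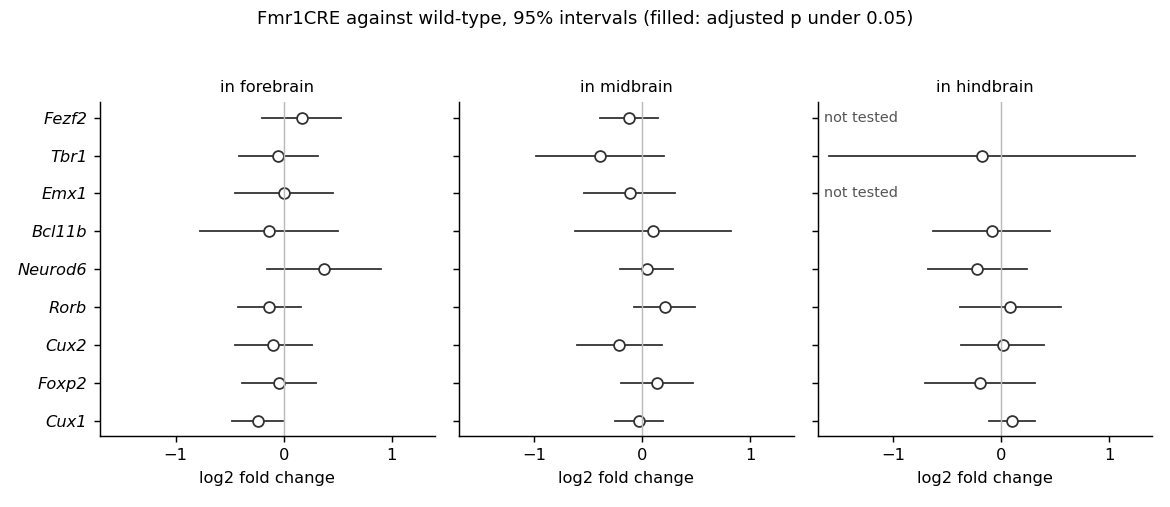
Log2 fold change of Fmr1CRE against wild-type libraries with its 95% interval for each gene in each region, from edgeR with 3 libraries per genotype. Points are open since no gene shown has an adjusted p under 0.05, and *Fezf2* and *Emx1* were too low for the test in hindbrain. The widest interval is that of *Tbr1* in hindbrain, from -1.59 to 1.24.

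For each member, the genes with the most similar pattern were found by Pearson's r of log2 CPM over the 18 libraries, which share their regions, so that r mostly reflects differences between regions. Nearest to *Tbr1* were *Rasgrp1* (r = 0.996), *Icam5* (0.995) and *Kcnf1* (0.995), and among those near *Bcl11b* were *Chst1* and *Cdk5r1* (0.994 each). Among those near *Fezf2* were *Gda* (r = 0.991) and *Ptk2b* (0.990). *Neurod6* was nearest to *Zdhhc23* (r = 0.990), and its second nearest gene was another member, *Fezf2* (0.985), followed by *Rasgrp1* (0.981). *Emx1* was nearest to *Cplx3*, *Nrgn* and *Gucy2g* (0.988 each). For *Cux2* the nearest were *Pitpnm2*, *Gsg1l* and *Cdk5r2* (0.981 to 0.976), for *Rorb* *9330102E08Rik*, *Drp2* and *Dcx* (0.973 to 0.971) and for *Foxp2* *Dlx1*, *Thrb* and *Erc2* (0.984 to 0.976). *Cux1*, the flattest member, had the weakest likeness, to *Mmd2*, *S1pr1* and *Cxcl14* (0.914 to 0.910).

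The 250 bases before RefSeq starts of the genes on GRCm38 were searched on both strands for short motifs of the members' own families. There were 10 windows for 8 members, with none for *Foxp2* and more than 1 for *Cux2* and *Rorb*. TAATTA, a homeodomain motif, was found in 4.84% of all 32851 windows and in 1 window of the members, that of *Tbr1*. It holds the motif 2 times, from bases -33 and -18 counted back from the start, and they are shown with the motifs in capitals because both lie within 30 bases.
Tbr1, chr2:61804415-61804444, plus strand: tatccTAATTAatgtctatcTAATTAaatt
ATCGAT, the cut homeodomain motif (0.728% of all windows), and CAGATG, an E-box (14.4%), were each found in 1 window of the members. It is the *Cux2* window at chr5:122047826-122048075, and the *Cux2* window at chr5:122049852-122050101 held neither. TGTTTAC, the forkhead motif (3.17%), was found in the window of *Cux1*. GGTGTGA, the T-box motif (3.33%), and AGGTCA, a nuclear receptor motif (14.0%), were in 0 of the 10 windows. These are matches of letters and say nothing about binding.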

How the data were processed

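Poly(A) RNA of 18 libraries (3 regions, 2 genotypes, 3 mice each) was sequenced with single-end reads in the study. Per the labels and the paper's methods, the authors estimated reads per transcript with salmon 0.14.0 in the bcbio_nextgen pipeline, on mm10, and deposited estimated counts, added up over each gene's transcripts, as whole numbers that were not normalized, for use with DESeq2 1.30.1. The authors also deposited salmon's TPM and expected counts per transcript, which were used only as ranges over all 18 sets. The annotation release of the authors is not given in the sources used here. Symbols and positions are from GENCODE M21 (53363 of 53468 identifiers matched). A table of variance-stabilized values was not used, as the copy here held no member. Columns of samples outside the series numbered 0.

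The counts were fitted with edgeR 4.0.16 in R 4.3.3 (TMM, filterByExpr, quasi-likelihood test, Benjamini-Hochberg adjustment over all genes tested, called under 0.05). Regions were compared in 1 fit of 18 libraries with 6 groups, averaging the genotypes. Genotypes were compared within each region, and their interaction with region over all 18 libraries. Log2 CPM for likeness used a prior count of 2. Exact permutation tests were two-sided. Depths ran from 22455512 to 28061185 counts, and some members had only a few counts in hindbrain. The part that depth and the spread between mice each have in the precision was not tested.

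Alternatives were DESeq2 1.42.0, DESeq2 size factors, no filter, at least 10 counts in every library, leaving out single libraries, both mice of replicate 3 or 1 genotype, 1 fit of all libraries for the genotypes, and replicate blocks. The tests were tested on simulated data. The pairing of libraries by number was checked by correlating deviations from group means over genes: r lay between -0.12 and 0.069 for the same number in the other genotype, and between -0.17 and 0.18 for 2 regions of 1 mouse. For the regions of a mouse the number marks the same animal, so the blocked fit was compared. For the genotypes it is only a number.

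Named genes were the 9 members, up to 4 genes of each other list (the 2 largest and 2 smallest differences between forebrain and midbrain) and the 3 genes nearest to each member, of which 2 are not reported here. The members and the 15 other lists were chosen with earlier results of these data known. Of the lists named nowhere else, olfactory bulb projection neuron genes had 1 of 3 tested genes higher and 0 lower in forebrain than in midbrain, hypothalamic genes 2 and 1 of 9, brainstem genes 0 and 7 of 7, astrocyte genes 1 and 1 of 4, oligodendrocyte genes 0 and 3 of 4, microglia genes 3 and 0 of 4 and endothelial genes 1 and 0 of 4. Promoter windows were taken from RefSeq.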

Additional observations from a re-analysis of the deposited data

Results flagged for a closer look

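In each region the 6 libraries of every member were searched for 1 value far from the rest, by Dixon's ratio of the gap to the whole range. Of 27 such sets 2 passed the 95% critical value, where chance gives about 5% of sets. *Neurod6* in forebrain had 75.4 CPM in Fmr1CRE replicate 1, with a gap of 0.787 of the range to the next library. *Fezf2* in hindbrain had 0.277 CPM in WT replicate 3, which is 7 counts against 0 or 1 in the other 5 libraries, with a gap of 0.848 of the range. The same hindbrain library was the highest for *Tbr1*, *Foxp2*, *Neurod6* and *Emx1*. No member's genotype effect differed between regions at an adjusted p under 0.05.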

How the results depend on the processing

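Between forebrain and hindbrain 9 of 9 members were called under every alternative that tested all 9, except that 8 were in Fmr1CRE libraries alone, and 6 of 6 tested were with at least 10 counts in every library. Between forebrain and midbrain the 6 members called became 2 without both mice of replicate 3, 0 in Fmr1CRE libraries alone and 4 in wild-type libraries alone. Between midbrain and hindbrain the 8 called became 5 with at least 10 counts in every library, where 6 members were tested. No called value changed sign. Of the values not called, 16 had the other sign under at least 1 alternative, 14 of them genotype values, such as *Bcl11b* in forebrain (-0.44 to 0.13) and *Tbr1* in hindbrain (-0.57 to 0.76), and the others *Neurod6* (-0.14 to 0.16) and *Fezf2* (-0.20 to 0.061) between forebrain and midbrain. No alternative called a member for genotype, and the midbrain percents moved by less than their spread between mice, also without both mice of replicate 3, an alternative chosen after seeing the data. With mouse as a replicate block the members called stayed at 9, 6 and 8 for the 3 region comparisons, and the genes called over all were 10347 for forebrain against hindbrain, 3504 for forebrain against midbrain and 9725 for midbrain against hindbrain, beside 10530, 3939 and 9994 without it. With the replicate number as a block in the genotype comparisons, 0 members were called.

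The genes called over all moved more. In Fmr1CRE libraries alone they were 6178 for forebrain against hindbrain, 527 for forebrain against midbrain and 4847 for midbrain against hindbrain, and in wild-type libraries alone 1729 for forebrain against midbrain. For genotype in forebrain, midbrain and hindbrain and for the genotype by region interaction, edgeR called 0, 1, 0 and 0 genes and DESeq2 31, 62, 59 and 52. No filter on low counts gave 11 in midbrain, 11 in hindbrain and 7 for the interaction. At least 10 counts gave 0 in midbrain. Without both mice of replicate 3 there were 0 in forebrain, 3 in midbrain, 1 in hindbrain and 131 for the interaction, and 1 fit of all 18 libraries gave 1, 0 and 1. Leaving out single libraries gave 0 to 4 genes in midbrain (4 without Fmr1CRE midbrain replicate 3), 0 to 5 in hindbrain (5 without WT hindbrain replicate 3) and 0 to 3 for the interaction (3 without Fmr1CRE forebrain replicate 3). The cause of these moves was not tested. *Fezf2*, *Tbr1* and *Emx1* had at most 7, 21 and 15 counts in hindbrain, and the effect of depth was not tested.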

Other observations

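Some genes that the rule named in the lists of microglia, oligodendrocytes, striatal and thalamic neurons also differed between forebrain and midbrain. *P2ry12*, a receptor of microglia, had 56.3 ± 3.00 CPM (SD, n = 6) in forebrain and 36.0 ± 4.41 CPM (SD, n = 6) in midbrain, and *Mag*, a myelin gene, had 319 ± 61.7 CPM (SD, n = 6) and 556 ± 65.5 CPM (SD, n = 6). *Adora2a*, the adenosine receptor of striatal neurons, had 59.9 ± 22.1 CPM (SD, n = 6) in forebrain and 8.15 ± 8.61 CPM (SD, n = 6) in midbrain, and *Tcf7l2*, a factor of thalamic neurons, had 24.2 ± 9.52 CPM (SD, n = 6) and 64.4 ± 16.9 CPM (SD, n = 6). Each of these 4 genes was called between forebrain and midbrain with edgeR. The thalamic list was mixed, with 2 of 10 genes called higher in midbrain and 1 higher in forebrain. The latter was *Ramp3*, with a difference of 0.59 (adjusted p = 0.0499, edgeR).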
